A study of Homo sapiens with 24 samples.

Results

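Small nucleolar RNAs (snoRNAs) and small Cajal body RNAs (scaRNAs) were measured by 304 of the 47309 probes on an Illumina HumanHT-12 bead array, for 301 of its 20042 annotated genes, those whose symbols begin with SNORA, SNORD or SCARNA. The 304 probes comprised 102 for H/ACA genes (SNORA), 178 for C/D genes (SNORD) and 24 for Cajal body genes (SCARNA). A probe was described further when some group, 1 or more of the 12, had it above the negative control beads (detection p under 0.05) in both of its arrays. This left 153 probes of 152 genes, of which 69 were H/ACA, 66 C/D and 18 Cajal body probes. Of the 153, 80 were detected on all 24 arrays, 8 were detected on both arrays of only 1 group, and 22 were not detected on both arrays of the non-targeting control. Because a dim probe entered through the group in which it was bright, counts over the 80 (38 H/ACA, 37 C/D and 5 Cajal body probes) are given beside those over the 153 in the main comparisons.

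The arrays held total RNA of MDA-MB-231, a human breast cancer cell line of mesenchymal type that lacks the estrogen receptor, taken 48 hr after transfection of 290000 cells with 50 nM of a synthetic RNA. There were 6 mimic groups (miR-655-3p, miR-544a, miR-410, miR-369-3p, miR-135a and miR-127-5p), 5 inhibitor groups (against the same microRNAs except miR-127-5p) and 1 group given a non-targeting (NT) control mimic, with 2 arrays in each. A mimic is a duplex that supplies the named microRNA in excess, and an inhibitor is an oligonucleotide that blocks it. The same 2 NT arrays served every comparison with the control, and no inhibitor-type control was analysed here. Whether duplicate arrays represent different cultures is not stated in the sources used here, and p-values therefore reflect the spread between these samples alone.

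Both kinds of snoRNA guide the chemical modification of other RNAs by base pairing. C/D snoRNAs, bound by fibrillarin, NOP56, NOP58 and SNU13, direct ribose methylation, and H/ACA snoRNAs, bound by dyskerin, NHP2, NOP10 and GAR1, direct pseudouridylation, in both cases mainly of ribosomal RNA. A few, such as U3 and U17, act in cleavage of the ribosomal RNA precursor rather than in modification. The scaRNAs have the same structures but lie in the Cajal body, a nuclear compartment, where they guide modification of spliceosomal RNAs. In human cells most of these RNAs are cut out of the introns of host genes after splicing.

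The microRNAs whose arm the labels name define 4 of the mimic groups, and their mature sequences are given to show that the treatments differed in seed, the stretch at bases 2 to 8 through which a microRNA pairs with its targets. Sequences are from RefSeq on GRCh38.p14, 5′ to 3′, with the seed in capitals, and all lie on the plus strand of chromosome 14, at chr14:100883001-100883022 (MIR127), chr14:101065641-101065661 (MIR369), chr14:101048712-101048733 (MIR544A) and chr14:101049610-101049631 (MIR655).
miR-127-5p: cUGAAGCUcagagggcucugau
miR-369-3p: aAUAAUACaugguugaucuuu
miR-544a: aUUCUGCAuuuuuagcaaguuc
miR-655-3p: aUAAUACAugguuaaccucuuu
The miR-655-3p and miR-369-3p seeds had a run of 6 bases in common, and no other pair of these 4 shared more than 2. The same chromosome carries the snoRNA genes SNORD112, SNORD113 and SNORD114, all of which lie within the non-coding RNA gene MEG8 in the RefSeq table. These were dim. Of 25 probes for them, 3 were described (SNORD113-7, SNORD114-2 and SNORD114-7), with group means between 22.6 and 37.6 normalized signal units, and none of the 3 differed among groups (adjusted p from 0.524 to 0.786, moderated F test of limma). The brain-type snoRNAs SNORD115 and SNORD116 had 2 and 5 probes, none of them described.

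Across the series, median signal per array lay between 101.7 and 123.1 before normalization, 19754 to 21286 probes were detected per array, and duplicate arrays correlated at r from 0.980 to 0.997 over tested probes. VIM, CD44, ANXA1, AXL and PLAU were detected on all 24 arrays. ESR1, CDH1 and the leukocyte marker PTPRC were detected on none, PGR was detected on 1, and the endothelial marker PECAM1 on 16, never above 43.0 units. ERBB2 (606 to 958 units) and ALB (62.9 to 137 units) were detected on all 24. Signals below are background-corrected, quantile-normalized units with an offset of 16, so that an undetected probe reads about 20. A difference was called at an adjusted p under 0.05 over all 22803 tested probes together with a fold of at least 1.4.

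Over all 12 groups, 87 of the 153 probes (56.9%) differed by the moderated F test, against 56% of all tested probes. The share was 42 of 69 for H/ACA, 31 of 66 for C/D and 14 of 18 for Cajal body probes. Of the 80 probes detected on all arrays 57 differed (71.2%, against 70.5% of all probes so detected), with 28 of 38 H/ACA, 24 of 37 C/D and 5 of 5 Cajal body probes. The distance between the lowest and the highest group mean had a median of 1.68 on the log2 scale for Cajal body probes, 0.78 for H/ACA, 0.79 for C/D, and 0.76 for all tested probes. Only 5 of the 18 Cajal body probes were detected on all arrays. A dim probe that entered through the group in which it was bright has a wide range partly by selection. The range was not taken over the 80 alone, so the medians do not set the class apart. In 12 comparisons between groups, 89 of the 153 probes were called at least once and 64 never, with 75 lower and 48 higher at least once. The same count was not made over all tested probes, so these numbers do not set the members apart from probes at large.

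Summed over the 18 probes, the Cajal body signal fell into widely separated levels. It was 2208 and 2499 units on the miR-127-5p mimic arrays, 2565 and 2578 on the miR-544a mimic arrays, and 2309 and 2137 on the NT arrays. The other mimics gave 847 and 886 (miR-135a), 860 and 854 (miR-369-3p), 887 and 869 (miR-410), and 1137 and 1060 (miR-655-3p). The 10 inhibitor arrays lay between 718 and 1181. High sums thus occurred with 2 of the mimics and the control, and every inhibitor array and the arrays of the other 4 mimics lay below 1181 or at it. The sums are on a linear scale, so bright probes weigh most. SCARNA18 made up a large part of these differences, as did SNORA12 of those in the H/ACA sum. Sums without these probes, or over the 5 Cajal body probes detected on all arrays, were not made. The H/ACA sum was 8879 to 9662 units on the miR-127-5p and miR-544a mimic arrays, 6603 to 8391 on the arrays of the other mimics and the inhibitors, and 9200 and 8338 on the NT arrays, so that the second NT array lay within the lower range. The C/D sum did not follow it: it was 6817 and 6549 units on the miR-135a inhibitor arrays and 6456 and 6702 on those of the miR-410 inhibitor, above the NT arrays at 5699 and 5396. Median signal before normalization did not separate the same arrays: it was 118.3 and 113.6 for the miR-127-5p mimic, 114.5 and 123.1 for the miR-544a mimic and 120.3 and 113.5 for NT, and ran from 101.7 to 121.3 in the other groups, so that 1 of these 6 arrays lay above the others' range.

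**Figure D1:**
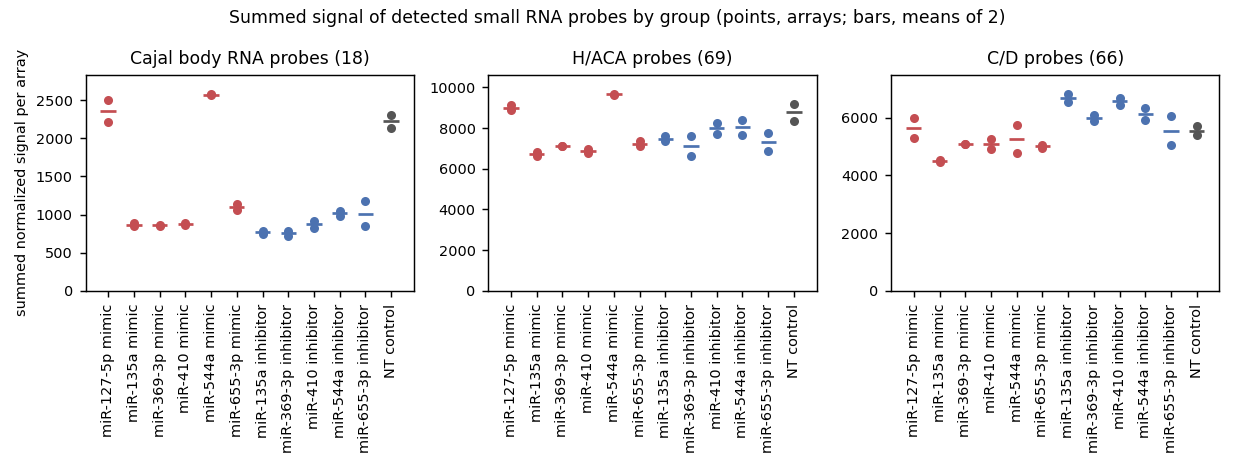
Summed normalized signal (linear scale) of the detected probes of each class on each array, by group; points are arrays, bars are means of 2, with mimics in red, inhibitors in blue and the NT control in grey. The Cajal body sum lies between 2137 and 2578 units in the miR-127-5p mimic, miR-544a mimic and NT groups and between 718 and 1181 units in all other groups.

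SCARNA18 had the widest range of group means in the class, 3.52 on the log2 scale. It measured 785 and 935 units with the miR-127-5p mimic, 660 and 662 with the miR-544a mimic, and 227 and 217 with the miR-655-3p mimic. In the miR-135a mimic group it gave 84.1 and 70.8, in the miR-369-3p group 98.8 and 111, and in the miR-410 group 108 and 103. The inhibitor arrays ran from 65.8 through a median of 111 to 225, and the NT arrays gave 777 and 685. Groups at the high level did not overlap any group at the low level. Against NT, SCARNA18 fell by 3.24 on the log2 scale (SE 0.26) with the miR-135a mimic, by 2.80 with miR-369-3p, by 2.79 with miR-410, by 1.72 with miR-655-3p and by 2.66 in the mean of the inhibitors, with adjusted p from limma between 2.73e-07 and 0.000203.

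SCARNA20, a H/ACA-type scaRNA also known as ACA66, dropped to the edge of detection. Its signal was 131 and 177 units with the miR-127-5p mimic, 210 and 195 with miR-544a, and 134 and 136 on NT arrays. The miR-135a mimic arrays gave 24.3 and 32.7, those of miR-369-3p 26.2 and 22.7, those of miR-410 31.3 and 25.8, and those of miR-655-3p 31.0 and 31.4. Inhibitor arrays ran from 20.9 to 30.8 with a median of 23.0, and only 3 of the 10 detected it. The low groups therefore set mainly a bound: with the miR-369-3p mimic, where neither array detected it, SCARNA20 was at least 4.88-fold lower than in NT (adjusted p = 7.47e-07, limma).

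SCARNA8 (U92), SCARNA11, SCARNA14, SCARNA16, SCARNA22 and SCARNA23 followed, with some differences in detail. SCARNA22 was 155 and 179 units with the miR-127-5p mimic, 152 and 144 with miR-544a and 137 and 154 on NT arrays, against 26.6 to 77.7 on the inhibitor arrays. SCARNA16 had its highest signals with the miR-544a mimic (281 and 275) and the miR-127-5p mimic (267 and 268), with NT at 205 and 167. SCARNA8 and SCARNA11 separated the high groups further. SCARNA8 gave 162 and 147 units with miR-544a, 56.7 and 53.7 with miR-127-5p and 98.5 and 88.5 in NT, none of which overlapped. SCARNA11 kept the same order, 149 and 132 with miR-544a, 64.1 and 67.2 with miR-127-5p, 104 and 97.1 in NT. In the comparison of the miR-127-5p mimic with NT both were called lower, SCARNA8 by 0.76 (SE 0.14, adjusted p = 0.00119) and SCARNA11 by 0.61 (SE 0.15, adjusted p = 0.00951), the call on SCARNA11 being lost with 2 of the 4 arrays left out singly.

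Not every scaRNA did this. SCARNA10 (U85), which guides modification of the U5 spliceosomal RNA and was the brightest of the class, had group means only between 155 and 259 units. SCARNA9, a box C/D type scaRNA, was lower with the miR-544a mimic (47.3 and 40.1 units) than in NT (116 and 95.8), by 1.28 on the log2 scale (SE 0.19, adjusted p = 0.000119), opposite in direction to SCARNA8 in that comparison. SCARNA13 (U93) stood at 120 and 119 with the miR-135a mimic, above 52.3 and 52.2 in the miR-135a inhibitor group, a difference of 1.20 (SE 0.10, adjusted p = 6.65e-07). SCARNA7 and SCARNA27 were dim, with group means from 22.2 to 33.5 units, and like SCARNA10 they were called in none of the 12 comparisons.

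Among the H/ACA snoRNAs, SNORA12 and SNORA79 had the widest ranges of group means, 3.50 each on the log2 scale. SNORA12 measured 746 and 826 with the miR-127-5p mimic, 1271 and 1067 with the miR-544a mimic, and 480 and 403 with the miR-655-3p mimic. The miR-135a mimic arrays gave 264 and 350, those of miR-369-3p 203 and 224, and those of miR-410 361 and 261. Inhibitor arrays ran from 97.1 through a median of 210 to 520, and NT arrays gave 1281 and 1078. Differences from NT were -2.46 (miR-369-3p), -1.95 (miR-135a), -1.94 (miR-410), -1.42 (miR-655-3p) and -2.51 (mean of the inhibitors) on the log2 scale, with adjusted p between 1.39e-06 and 0.00246. The miR-544a mimic and NT arrays overlapped, and those of miR-127-5p lay below both.

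SNORA79 was brighter with the miR-544a mimic, 287 and 287 units, than in any other group. It gave 132 and 146 with miR-127-5p and 96.7 and 112 in NT, and between 21.4 and 61.2 on the inhibitor arrays. With miR-369-3p it was 23.8 and 27.0, not detected on either array, so that it was at least 3.76-fold lower than in NT (adjusted p = 1.28e-05). The miR-544a mimic exceeded NT by 1.46 (SE 0.19, adjusted p = 3.52e-05) and its own inhibitor, at 45.1 and 36.2 units, by 2.83 (SE 0.19, adjusted p = 4.77e-08). SNORA23, SNORA27 and SNORA74B had the same levels in outline. SNORA23 was 262 and 284 with miR-544a, 111 and 139 with miR-127-5p and 180 and 150 in NT, against 30.9 to 73.4 on the inhibitor arrays.

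**Figure D2:**
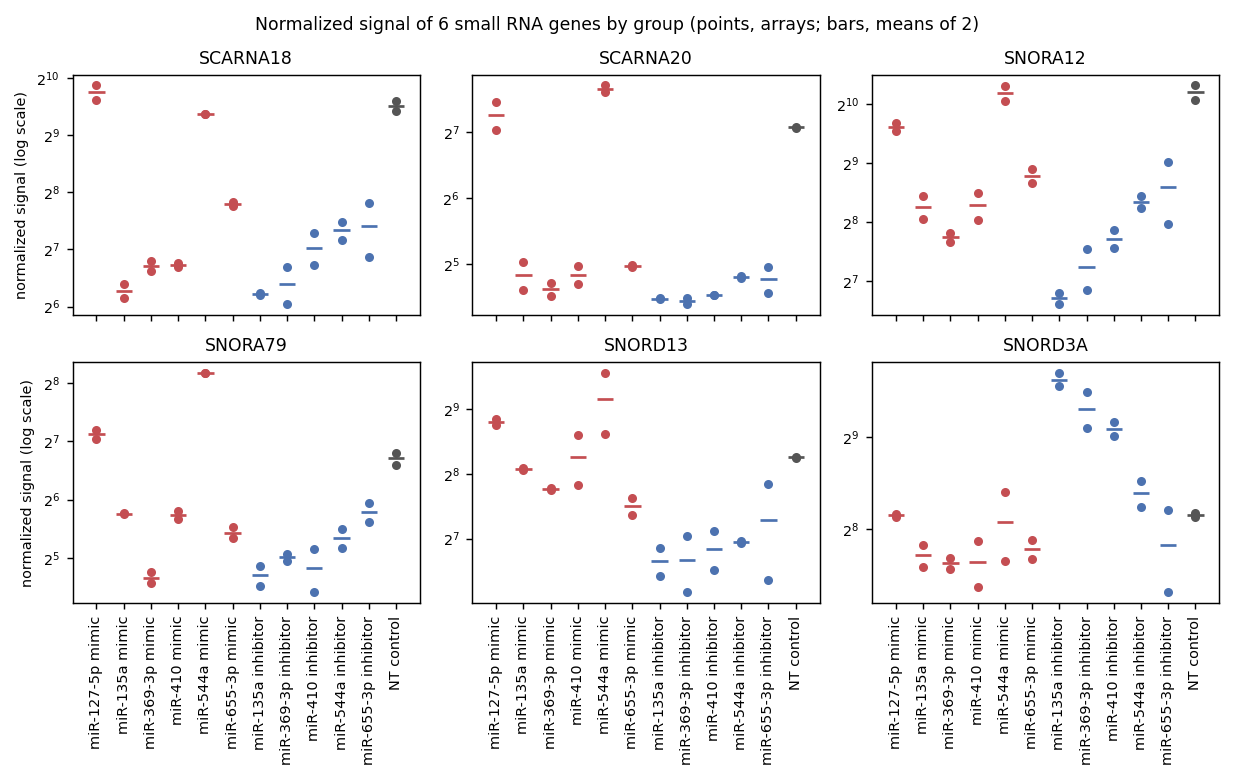
Normalized signal (log scale) on each array of 6 genes, by group; points are arrays and bars are means of 2, with mimics in red, inhibitors in blue and the NT control in grey. SCARNA18, SCARNA20, SNORA12 and SNORA79 are high with the miR-127-5p and miR-544a mimics and in NT, whereas SNORD3A peaks with the miR-135a, miR-369-3p and miR-410 inhibitors.

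Counted over the 153 probes against NT, the miR-135a mimic had 39 lower and 2 higher, where 8.27% and 8.14% of all tested probes were called. The miR-369-3p mimic had 28 lower and 2 higher (background 2.76% and 2.31%), the miR-410 mimic 29 and 1 (background 4.1% and 3.46%), and the miR-655-3p mimic 26 and 0 (background 5.9% and 5.51%), although 6 of its members were higher at an unadjusted p under 0.05 in limma with no minimum fold. The mean of the 5 inhibitors had 28 lower and 7 higher (background 3.6% and 3.6%). Shares of 17% to 25.5% lower thus stood against backgrounds of 2.76% to 8.27%. By class, lower calls took 9, 11, 10, 9 and 11 of the 18 Cajal body probes in these 5 comparisons, 21, 14, 15, 12 and 13 of the 69 H/ACA probes, and 9, 3, 4, 5 and 4 of the 66 C/D probes. The comparisons share their NT arrays, so they are not independent of one another.

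The miR-544a mimic against NT had 13 lower and 15 higher (background 9.8% and 11.2%), and the miR-127-5p mimic had 7 and 9 (background 8.02% and 7.75%). Over the 80 probes detected on all arrays, the miR-544a mimic had 8 lower (10%, against 12.3% of all probes so detected) and 9 higher (11.2%, against 13.9%). The miR-127-5p mimic had 1 lower (1.25%, against 10.4%) and 8 higher (10%, against 10.2%), so that its lower calls were fewer than among probes at large. Over the same 80, lower calls against NT numbered 20 with the miR-135a mimic (25%, against 10.5% of the 15326 probes detected on all arrays), 13 with miR-369-3p (16.2%, against 3.51%), 13 with miR-410 (16.2%, against 5%), 14 with miR-655-3p (17.5%, against 7.63%) and 14 in the mean of the inhibitors (17.5%, against 4.26%). Lower shares among these 80 were thus also above the shares of all probes detected on all arrays in these 5 comparisons. They comprised 2, 4, 3, 3 and 4 of the 5 Cajal body probes, 12, 7, 7, 7 and 7 of the 38 H/ACA probes, and 6, 2, 3, 4 and 3 of the 37 C/D probes. Leaving out single arrays gave 30 to 37 lower calls with miR-135a, 21 to 23 with miR-369-3p, 21 to 26 with miR-410, 19 to 25 with miR-655-3p and 20 to 29 in the inhibitors, and omitting the background correction gave 20, 17, 12, 14 and 14.

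**Figure D3:**
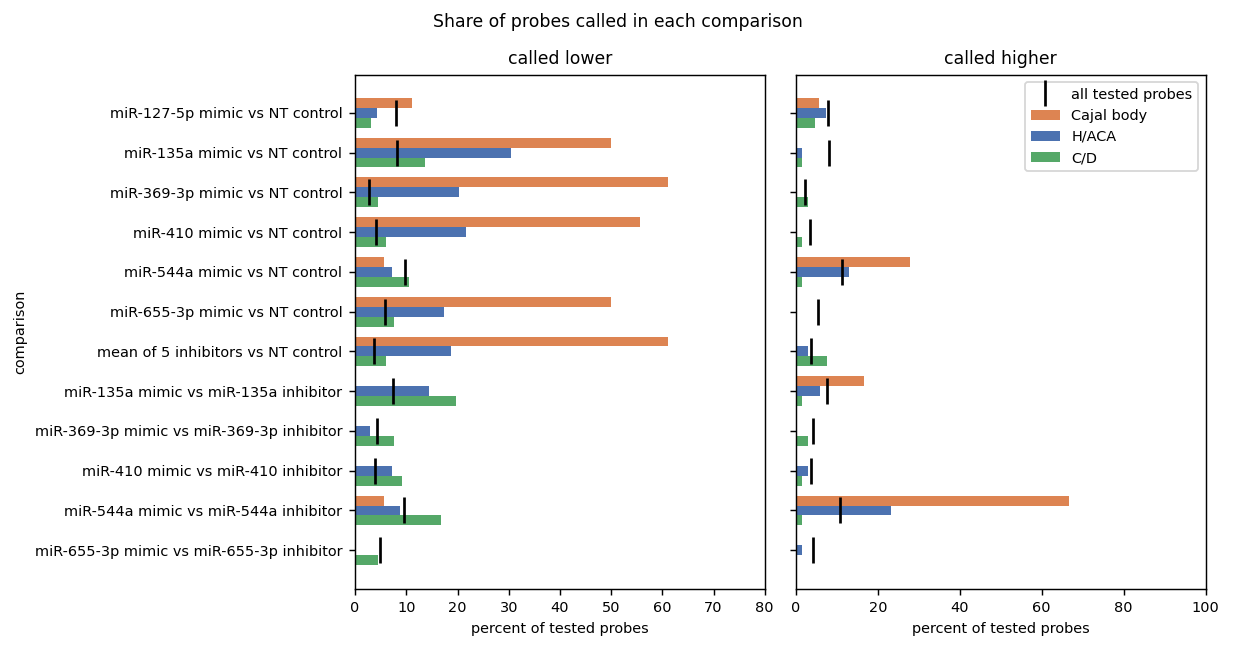
Percent of tested probes called lower (left) and higher (right) in each of the 12 comparisons, for Cajal body, H/ACA and C/D probes; black ticks mark the percent of all tested probes. Cajal body bars reach 50% to 61.1% lower in 5 comparisons with NT and 66.7% higher in the miR-544a mimic against its inhibitor.

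Comparisons of a mimic with its own inhibitor do not use the NT arrays. For miR-544a, 29 probes were higher and 18 lower in the mimic (background 10.7% and 9.5%), with 12 of 18 Cajal body, 16 of 69 H/ACA and 1 of 66 C/D probes higher. SCARNA20 led with 202 ± 10.6 units in the mimic and 27.9 ± 0.43 in the inhibitor (SD, n = 2 each), a difference of 2.86 (SE 0.16, adjusted p = 5.74e-09, limma). SNORA79 followed with 2.83, SCARNA8 with 2.35, SCARNA14 with 2.23, SNORA23 with 2.15, SCARNA11 with 2.05, SCARNA18 with 2.05, SNORA74B with 2.02 and SNORA12 with 1.85. All of these stayed called when any 1 array was left out. Among the 80 probes detected on all arrays, 12 were higher (15%, against 12.7% of probes) and 12 lower (15%, against 12%), close to the background. The 12 higher were 4 of 5 Cajal body, 7 of 38 H/ACA and 1 of 37 C/D probes.

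The miR-127-5p mimic, which had no inhibitor of its own, was set against the mean of the 5 inhibitor groups, a comparison chosen after the data had been seen. In it 26 probes were higher and 10 lower (background 9% and 9.08%), with 10 of 18 Cajal body, 14 of 69 H/ACA and 2 of 66 C/D probes higher. Over the 80 detected on all arrays, 15 were higher (18.8%, against 11.4% of all probes so detected) and 9 lower (11.2%, against 11.9%). SCARNA18 differed by 2.89 (SE 0.20, adjusted p = 2.12e-08), SCARNA20 by 2.66, SNORA79 by 2.00 and SNORA12 by 1.93. The other mimics gave, against the same reference, 29 lower and 3 higher with miR-135a (background 6.7% and 6.99%), 5 and 0 with miR-369-3p (background 1.75% and 1.68%), 8 and 2 with miR-410 (background 3.14% and 2.43%), 9 and 7 with miR-655-3p (background 5.91% and 6.01%), and 21 and 29 for miR-544a (background 10.2% and 10.3%). Cajal body probes were 12 of the 29 higher with miR-544a and 5 of the 7 with miR-655-3p. Over the 80 detected on all arrays, miR-544a had 13 higher (16.2%, against 12.2% of all probes so detected), 4 of them Cajal body probes. It had 17 lower (21.2%, against 12.5%). Of the same 80, miR-655-3p had 3 higher (3.75%, against 7.09%), 1 of them a Cajal body probe, and 5 lower (6.25%, against 7.91%). A missed call with 2 arrays a group does not show equal levels.

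For the other pairs, Cajal body probes were seldom called. The miR-135a pair had 3 of 18 higher and 0 lower, and the miR-369-3p, miR-410 and miR-655-3p pairs had 0 in both directions. At an unadjusted p under 0.05 in limma with no minimum fold, 3, 3 and 1 of the 18 were higher in these 3 pairs and 1, 0 and 0 lower. The share of all tested probes at that cut was not counted, so these counts have no background. Over all 153, the miR-135a mimic had 23 lower and 8 higher than its inhibitor (background 7.44% and 7.71%), miR-369-3p 7 and 2 (background 4.23% and 4.29%), miR-410 11 and 3 (background 3.89% and 3.74%), and miR-655-3p 3 and 1 (background 4.86% and 4.13%). In these 4 pairs 13, 5, 6 and 3 of the lower calls were C/D probes. Over the 80 detected on all arrays, lower calls numbered 18 for miR-135a (22.5%, against 9.64% of all probes so detected), 7 for miR-369-3p (8.75%, against 5.42%), 10 for miR-410 (12.5%, against 4.79%) and 3 for miR-655-3p (3.75%, against 6.58%). Higher calls numbered 4 (5%, against 9.64%), 1 (1.25%, against 5.42%), 2 (2.5%, against 4.78%) and 1 (1.25%, against 4.81%), each share below that of all probes so detected.

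**Figure D4:**
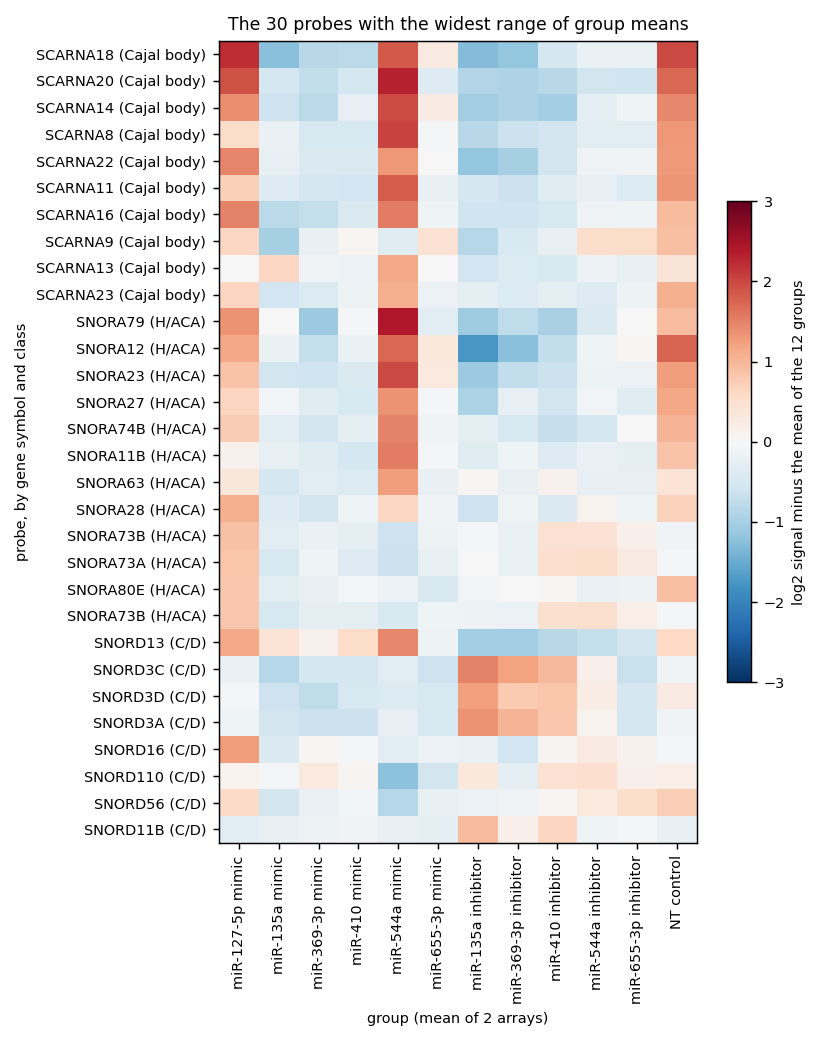
Group means (2 arrays each) of the 30 probes with the widest range of group means, as log2 signal minus the mean of the 12 groups, with rows sorted by class; red is above and blue below that mean. All 10 Cajal body and 12 H/ACA rows have their highest mean in the miR-127-5p mimic, the miR-544a mimic or NT. Among the C/D rows, SNORD13, SNORD16 and SNORD56 also peak among those groups, whereas the SNORD3 rows peak in the miR-135a inhibitor.

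U3, the C/D snoRNA needed for the first cleavages that release 18S ribosomal RNA, led the calls of the miR-135a, miR-369-3p and miR-410 pairs. It was measured by the probes SNORD3A, SNORD3C and SNORD3D, which stand for near-identical copies on chromosome 17 and cannot be told apart by hybridization with certainty. SNORD3A gave 227 and 193 units with the miR-135a mimic and 749 and 826 with the miR-135a inhibitor. It gave 190 and 206 with the miR-369-3p mimic and 546 and 719 with the miR-369-3p inhibitor. For miR-410 it was 233 and 166 in the mimic and 574 and 515 in the inhibitor. In all of these pairs the inhibitor arrays lay above the mimic arrays and above the NT arrays, at 288 and 281.

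The fitted mimic minus inhibitor differences of SNORD3A were -1.91 (SE 0.26, adjusted p = 6.9e-05), -1.66 (SE 0.26, adjusted p = 0.0011) and -1.47 (SE 0.26, adjusted p = 0.00179) on the log2 scale for miR-135a, miR-369-3p and miR-410. SNORD3C gave -2.34, -1.72 and -1.46, and SNORD3D -1.86, -1.54 and -1.32. The calls on SNORD3D in the miR-369-3p and miR-410 pairs were each lost with 2 of 4 arrays left out. The miR-544a and miR-655-3p inhibitors did not share the high level: SNORD3A measured 302 and 368 with the first and 160 and 296 with the second, which spread across the NT values. In the mean of the 5 inhibitors against NT the groups accordingly overlapped (0.68, SE 0.20, adjusted p = 0.0343), and that call was lost in 5 of 12 fits without 1 array.

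SNORD13 (U13), a C/D snoRNA that directs acetylation of 18S ribosomal RNA, was low in the inhibitors. Its signal was 458 and 430 with the miR-127-5p mimic, 749 and 393 with the miR-544a mimic and 308 and 301 in NT, and the inhibitor arrays ran from 72.3 through a median of 119 to 228. The miR-544a mimic exceeded its inhibitor (124 and 122) by 2.14 (SE 0.40, adjusted p = 0.000956). The miR-135a mimic, at 271 and 265, exceeded its inhibitor, at 115 and 85.6, by 1.43 (SE 0.40, adjusted p = 0.0185), and this call was lost with 3 of 4 arrays left out. Neither U3 nor U13 lies within a protein-coding or long non-coding gene in the RefSeq table.

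Other C/D snoRNAs differed with the miR-544a mimic. SNORD56, a methylation guide in an intron of NOP56, measured 78.7 and 52.0 units with the mimic, 138 and 147 with its inhibitor and 193 in both NT arrays. It was lower than in NT by 1.59 (SE 0.18, adjusted p = 6.26e-06) and lower than in the inhibitor by 1.15 (SE 0.18, adjusted p = 0.000186). SNORD57 and SNORD110, from introns of the same gene, were also called lower in both comparisons, although SNORD110 differed widely between its mimic arrays, 95.2 and 27.9 units, and lost its call against NT with 3 of 4 arrays left out. NOP56 itself was 0.49 lower than in the inhibitor (adjusted p = 0.00336) and differed from NT by -0.10 (adjusted p = 0.56). SNORD14C, a copy of U14, which takes part in 18S processing, was 130 and 94.8 with the miR-544a mimic and 235 and 224 in NT, a difference of -1.05 (SE 0.16, adjusted p = 0.000174).

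With the miR-127-5p mimic other members were higher than in NT. SNORA73A and SNORA73B are copies of U17, the H/ACA snoRNA that acts in 18S processing and not in modification, and their probes may detect each other. The probes for SNORA73B averaged 233 ± 6.98 and 224 ± 29.2 units with the mimic and 117 ± 1.52 and 123 ± 2.06 in NT (SD, n = 2 each), differences of 0.99 (SE 0.25, adjusted p = 0.00883) and 0.87 (SE 0.20, adjusted p = 0.0049), limma. SNORA73A differed by 0.89 (SE 0.24, adjusted p = 0.0133). Leaving out single arrays ended these calls in 3, 1 and 3 of 4 fits. SNORD16, at 442 and 249 units against 149 and 125 in NT, differed by 1.28 (SE 0.32, adjusted p = 0.00865) and lost its call in 2 of 4 fits, its mimic arrays being far apart. SNORA11D, with 203 and 238 against 115 and 113 units in NT, kept its call in all 4 (0.95, SE 0.15, adjusted p = 0.000196).

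U17 was lower in the miR-544a mimic than in its inhibitor. SNORA73A measured 79.1 and 63.2 units in the mimic and 148 and 171 in the inhibitor, a difference of -1.17 (SE 0.24, adjusted p = 0.00181). RCC1, the gene taken as host of SNORA73A, was 1.21 lower in the same comparison (adjusted p = 7.98e-06) and 0.75 lower than in NT (adjusted p = 0.000553). Hosts were taken by position, as the protein-coding gene where several enclosed a member, and which gene yields U17 was not tested.

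Further members differed between single groups. SNORA65, in an intron of RPL12, measured 47.2 and 54.7 units with the miR-135a mimic and 101 and 92.7 with its inhibitor, and 58.6 and 50.1 with the miR-410 mimic and 133 and 106 with its inhibitor. It was lower in both mimics, by 0.93 (SE 0.13, adjusted p = 9.45e-05) and 1.13 (SE 0.13, adjusted p = 4.43e-05). SNORA10, in an intron of RPS2, was 131 to 172 units on the inhibitor arrays and 95.1 and 102 in NT, a difference of 0.61 (SE 0.09, adjusted p = 0.000169) with no overlap. SNORA63, in an intron of EIF4A2, was brightest with the miR-544a mimic, at 276 and 328 units against 177 and 157 in NT (0.85, SE 0.17, adjusted p = 0.00134). SNORA80E was high in fewer groups, 144 and 177 units with the miR-127-5p mimic and 177 and 159 in NT, with 58.6 to 104.5 on all other arrays, the miR-544a mimic included (95.6 and 67.8). SNORD36A and SNORA24 were the only members called in the miR-655-3p pair that kept their calls without any 1 array, at -0.74 (adjusted p = 0.00132) and 0.61 (adjusted p = 0.00136).

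Several of the brightest members did not pass the F test. SNORA61, in an intron of SNHG12, was the brightest of all at a mean of 10.07 on the log2 scale, with group means from 874 to 1175 units, and an F-test adjusted p of 0.343. SNORA18 and SNORA70 had 0.114 and 0.138. SNORD104, the brightest C/D snoRNA, ranged from 398 units with the miR-127-5p mimic to 726 with the miR-369-3p inhibitor and passed (adjusted p = 1.81e-05). SNORD96A, at 7.84 on the log2 scale, also passed (adjusted p = 0.00481).

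Host genes were read beside their members. Of the 153 probes, 146 lay within a protein-coding or long non-coding gene of the RefSeq table and 117 had a single host with a tested probe, giving 82 hosts. With the miR-369-3p mimic against NT, 26 lower members had 26 such hosts, of which 0 were called, with medians of -1.18 for members and -0.02 for hosts on the log2 scale. With the miR-655-3p mimic 0 of 23 hosts of lower members were called, with miR-410 1 of 25, with the mean of the inhibitors 1 of 24, and with miR-135a 4 of 35 were lower and 2 higher. Of all tested probes, 2.76% (miR-369-3p), 5.9% (miR-655-3p), 4.1% (miR-410), 3.6% (inhibitors) and 8.27% (miR-135a) were called lower in these comparisons. In these 5 comparisons the hosts were thus called about as seldom as probes at large. Lower members of the miR-544a pair had 3 of 11 hosts lower (background 9.5%). With the miR-127-5p mimic against NT 2 of 6 were lower (background 8.02%), and in the miR-135a pair 2 of 14 (background 7.44%), with 0 higher in each. With the miR-544a mimic against NT 0 of 10 were lower and 1 higher, and the miR-369-3p, miR-410 and miR-655-3p pairs had 0 called. At an unadjusted p under 0.05 in limma, 2 of the 26 hosts were lower and 2 higher with miR-369-3p, and 0 of the 23 lower and 1 higher with miR-655-3p. At the same cut 9 of the 35 were lower and 4 higher with miR-135a. With miR-410 2 of the 25 were lower and 1 higher, and with the inhibitors 2 of the 24 were lower and 5 higher. The share of all tested probes at this cut was not counted. For the miR-544a mimic against its inhibitor, 24 hosts of higher members comprised 4 lower, 1 higher and 19 not called (background 9.5% lower and 10.7% higher), with medians of 1.39 for members and -0.17 for hosts. At an unadjusted p under 0.05 in limma 10 of these 24 were lower and 4 higher.

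TMEM167A, the host of SCARNA18, differed from NT by -0.04 with the miR-369-3p mimic (adjusted p = 0.931) and by -0.09 in the mean of the inhibitors (adjusted p = 0.709), where SCARNA18 fell by 2.80 and 2.66. In the miR-544a mimic TMEM167A was 0.97 lower than in the inhibitor (adjusted p = 0.000189) while SCARNA18 was 2.05 higher. GTF2A1, the host of SNORA79, differed between the miR-544a mimic and inhibitor by 0.09 (adjusted p = 0.778), and SEC14L1, the host of SCARNA16, was 0.66 lower there (adjusted p = 0.000212). CWF19L1, the host of SNORA12, was 0.50 higher in that comparison (adjusted p = 0.0109), in the direction of its snoRNA, which differed by 1.85. SEC14L1 moved with SCARNA16 in another comparison, the miR-135a mimic against NT, where it was 1.27 lower (adjusted p = 3.45e-07) and SCARNA16 1.74 lower. Which strand a host lies on was not checked, and whether host and member probes read the same transcripts was not tested.

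**Figure D5:**
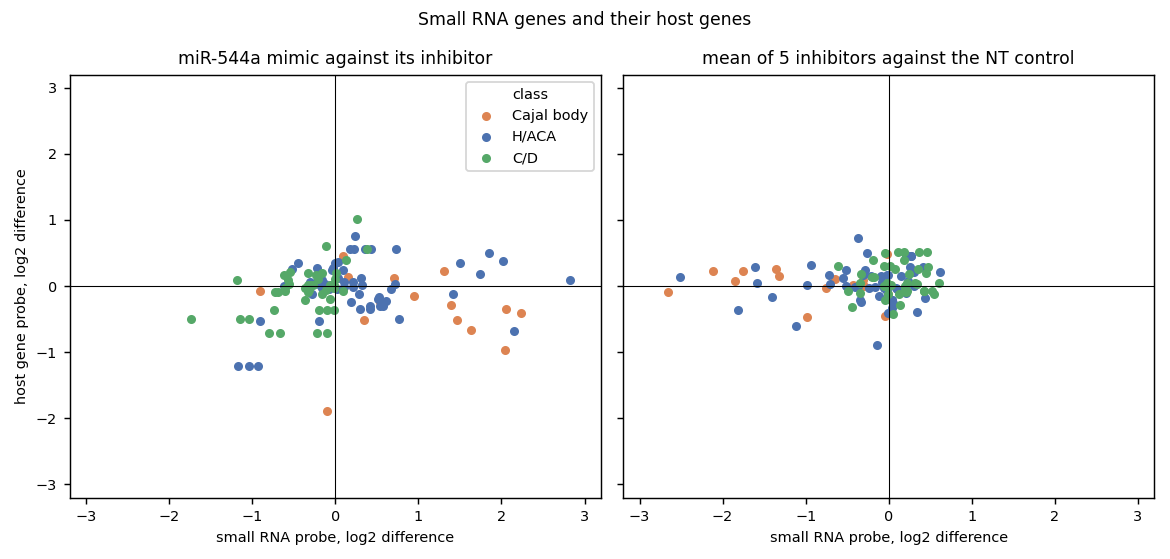
Log2 difference of each small RNA probe (horizontal) and of its host gene's probe (vertical) in the miR-544a mimic against its inhibitor (left) and in the mean of 5 inhibitors against the NT control (right); points are small RNA probes with a single tested host, coloured by class. The small RNA probes spread to 2.83 and -2.66 at the ends, whereas the hosts of the higher members on the left have a median of -0.17, against 1.39 for those members.

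Protein partners of these RNAs were measured on the same arrays. Across the 7 comparisons with NT, 2.31% to 11.2% of all tested probes were called in each direction, and lists this short could have 0 or 1 called at that share. Of 6 genes for H/ACA core proteins and their early assembly, 1 was called lower with the miR-127-5p mimic against NT (SHQ1, -0.75) and 1 higher with miR-544a (NAF1, 0.64), with 0 in the 5 other comparisons with NT, where at most 1 passed an unadjusted p under 0.05 in limma. Among 4 C/D core proteins, SNU13, which binds the C/D motif, was higher in every comparison with NT, by 1.16 to 1.41 on the log2 scale, and in no mimic against its inhibitor. Its signal was 930 ± 20.7 units in NT (SD, n = 2), below the means of all 11 other groups, 2075 to 2486. FBL, the methyltransferase fibrillarin, was lower with the miR-135a mimic than in NT (-0.51, adjusted p = 0.000794) and than in its inhibitor (-0.60, adjusted p = 0.000203).

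Of 9 assembly factors, 0 were called against NT with the miR-127-5p, miR-369-3p or miR-410 mimics or in the inhibitors, where 2 or 3 passed an unadjusted p under 0.05 in limma. With the miR-135a, miR-544a and miR-655-3p mimics 1 of the 9 was lower than NT and 0 higher in each (background 8.27%, 9.8% and 5.9% lower). Against the own inhibitor, 3 of the 9 were lower with miR-544a (background 9.5%) and 2 with miR-135a (background 7.44%), with 0 higher. The other pairs had 0 called. NUFIP1, which links the core proteins to the chaperone complex, was 1.30 lower in the miR-135a mimic than in its inhibitor (adjusted p = 3.36e-05). Of 7 Cajal body and cap proteins, PHAX, an adaptor for snoRNA transport to Cajal bodies, was lower than NT with miR-135a (-0.68, adjusted p = 0.00304) and miR-544a (-0.63, adjusted p = 0.00422), and no other was called against NT. Among 19 trimming and decay factors, PARN, a deadenylase that trims H/ACA and Cajal body RNAs, was higher than NT with every mimic but miR-127-5p, by 0.81 to 1.03, and by 1.02 in the inhibitors (adjusted p = 5.05e-05). PARN measured 95.4 ± 12.98 units with the miR-127-5p mimic, 222 ± 49.7 with miR-544a and 119.5 ± 23.0 in NT (SD, n = 2 each). Of the groups with high Cajal body signal, NT and miR-127-5p thus had low PARN and miR-544a did not. PARN was 1 of the 19, and a link to Cajal body signal was not tested. Lower and higher calls against NT over the list came to 2 and 0 for miR-127-5p (median -0.31 on the log2 scale). They were 2 and 1 for miR-135a, 0 and 1 for miR-369-3p and 1 and 1 for miR-410. For miR-544a they were 1 and 3, and 0 and 1 for miR-655-3p and for the inhibitors. The miR-135a pair had 5 and 0 (background 7.44% and 7.71%), the other pairs 1 or 2 and 0 or 1.

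Of 15 tested snoRNA host non-coding RNAs, 7 were higher and 0 lower with the miR-135a mimic against NT (background 8.14% and 8.27%), and 6 higher and 0 lower in the inhibitors (background 3.6% and 3.6%). The other 5 mimics had 1 or 2 higher, and 1 was lower with miR-127-5p. SNHG6 was higher in all 7 comparisons with NT, by 0.77 to 1.17. In the miR-410 pair 5 were lower and 0 higher in the mimic (background 3.89% and 3.74%), and in the other 4 pairs 1 to 3 were lower and 0 or 1 higher. Those of miR-410 were led by SNHG8 (-0.90) and SNHG7 (-0.77).

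The labelling kit named in the labels amplifies from an oligo(dT) primer, whereas mature snoRNAs are short and mostly lack a poly(A) tail. How well the RNA isolation kept short RNAs was not tested. Which form of each RNA gave the signal was not tested.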

How the data were processed

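Bead-array intensity values of 47309 probes were deposited by the authors before any normalization. A p-value of detection was deposited beside each intensity. The authors also deposited a log2 table, background-subtracted and quantile-normalized, used here only as an alternative. Here intensities were background-corrected from the detection p-values with an offset of 16, quantile-normalized and log2-transformed in limma 3.58.1 (R 4.3.3). Probes detected (p under 0.05) in a whole group, 1 or more of them, were kept (22803), and a model with 12 group means over 24 arrays was fitted with moderated tests and Benjamini-Hochberg adjustment over all tested probes. The fit was tested on simulated data. Figures used matplotlib 3.10.9.

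Each mimic was compared with NT and with its own inhibitor, and the mean of the 5 inhibitors with NT. Counts at an unadjusted p under 0.05 were made for the members, hosts and gene lists only. They have no background from all tested probes. A probe undetected on both arrays of a group has only a bound there: "at least N-fold" sets the brighter group's mean against the lowest detected level, or the probe's own signal where higher. Intensities carry no read depth, and the number of arrays limits precision. Neither labels nor headers give a chip position or scan date, so batches could not be examined. Gene symbols came from the platform's annotation, and hosts and neighbours from the RefSeq gene table, without checking strand (the protein-coding one where several genes enclosed a member). The files name no genome build, so coordinates are given for the RefSeq microRNA sequences alone, on that table's build.

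Named were, per comparison and direction, up to 10 called members with the largest change, the 5 brightest of each class, SCARNA18, SNORA12, SCARNA20 and SNORA79, and the 14q32 snoRNAs; others named for contrast were chosen after their values were seen. Members and gene lists were chosen with earlier results of these data known. Alternatives covered background correction, normalization, the filter, the minimum fold, the arrays in the fit, a replicate block, single arrays left out and the reference group.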

Additional observations from a re-analysis of the deposited data

Results flagged for a closer look

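The mimic minus inhibitor difference of each pair was set against the mean of the other 4 pairs, as an interaction in limma over all tested probes. The miR-544a pair had 30 of the 153 members higher and 9 lower, against 12.2% and 10.7% of all tested probes. These members include dim probes that entered through the group in which they were bright, and the interaction was not counted over the 80 detected on all arrays. In the mimic against its inhibitor, 15% of those 80 were higher, against 12.7% of all probes so detected. SCARNA20 differed by 2.60 on the log2 scale (SE 0.18, adjusted p = 6.52e-08), SNORA79 by 2.50 (SE 0.22, adjusted p = 5.78e-07) and SCARNA8 by 2.05 (SE 0.16, adjusted p = 1.98e-07).

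The miR-135a pair had 2 members higher and 14 lower than the other pairs (background 6.13% and 6.54%), with SNORD3C at -1.44 (SE 0.28, adjusted p = 0.00212). The miR-369-3p pair had 8 higher and 9 lower (background 4.73% and 4.85%), with SNORA79 at -1.47 (SE 0.22, adjusted p = 0.00127). The miR-410 pair had 1 higher and 8 lower (background 3.19% and 3.34%). The miR-655-3p pair had 7 higher and 6 lower (background 3.53% and 4.81%), with SNORD3C at 1.55 (SE 0.28, adjusted p = 0.00165). Each pair enters the mean that the others are set against, so these differences are not independent. With 2 arrays in each group, no test for a single outlying array was made.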

How the results depend on the processing

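Counts of members called moved with the processing, and no named value changed direction. Of 162 named calls, 96 were kept without background correction, 130 with median scaling, 130 of 161 in the authors' log2 table, 144 with no filter, 128 with only the arrays compared in the fit, and 161 of 161 with detection p under 0.01. In 784 fits without 1 array 622 kept the call, and 59 of the 162 lost it at least once. In the counts below, a pair is a mimic against its own inhibitor, and all others are against NT. Counts not listed stayed within 1.5 times. The causes were not tested.

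Without background correction, the members called were lower 0 (miR-127-5p mimic), 20 (miR-135a mimic), 17 (miR-369-3p mimic), 12 (miR-410 mimic), 5 (miR-544a mimic), 14 (miR-655-3p mimic), 14 (inhibitors), 4 (miR-135a pair), 3 (miR-369-3p pair), 6 (miR-410 pair), 7 (miR-544a pair), 0 (miR-655-3p pair), and higher 5 (miR-127-5p mimic), 0 (miR-135a mimic), 0 (miR-369-3p mimic), 0 (miR-410 mimic), 4 (miR-544a mimic), 2 (inhibitors), 3 (miR-135a pair), 0 (miR-369-3p pair), 1 (miR-410 pair), 17 (miR-544a pair), 0 (miR-655-3p pair). In the authors' log2 table, the members called were lower 4 (miR-127-5p mimic), and higher 9 (miR-544a mimic), 2 (miR-655-3p mimic), 0 (miR-369-3p pair). With median scaling, the members called were lower 15 (miR-135a pair), 3 (miR-369-3p pair), 7 (miR-410 pair), 1 (miR-655-3p pair), and higher 5 (miR-127-5p mimic), 0 (miR-135a mimic), 1 (miR-369-3p mimic), 0 (miR-410 mimic), 2 (inhibitors), 1 (miR-369-3p pair), 0 (miR-655-3p pair). With no filter on dim probes, the members called were lower 4 (miR-127-5p mimic), 7 (miR-410 pair), and higher 0 (miR-410 mimic), 4 (inhibitors), 1 (miR-369-3p pair). With no minimum fold, the members called were lower 12 (miR-127-5p mimic), and higher 2 (miR-410 mimic), 2 (miR-655-3p mimic), 15 (inhibitors), 2 (miR-655-3p pair). With only the arrays compared in the fit, the members called were lower 6 (miR-544a mimic), 3 (miR-369-3p pair), 4 (miR-410 pair), 6 (miR-544a pair), 0 (miR-655-3p pair), and higher 0 (miR-410 mimic), 1 (miR-655-3p mimic), 0 (miR-369-3p pair), 0 (miR-410 pair), 0 (miR-655-3p pair). With detection p under 0.01, the members called were higher 4 (miR-369-3p pair). With the mean of the inhibitors as reference in place of NT, chosen after seeing the data, the members called were lower 5 (miR-369-3p mimic), 8 (miR-410 mimic), 21 (miR-544a mimic), 9 (miR-655-3p mimic), and higher 26 (miR-127-5p mimic), 0 (miR-369-3p mimic), 2 (miR-410 mimic), 29 (miR-544a mimic), 7 (miR-655-3p mimic).

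Without 1 array, lower calls ranged from 3 to 7 (miR-127-5p mimic), 30 to 37 (miR-135a mimic), 21 to 23 (miR-369-3p mimic), 21 to 26 (miR-410 mimic), 6 to 19 (miR-544a mimic), 19 to 25 (miR-655-3p mimic), 20 to 29 (inhibitors), 15 to 17 (miR-135a pair), 4 to 10 (miR-369-3p pair), 4 to 11 (miR-410 pair), 9 to 20 (miR-544a pair), 1 to 4 (miR-655-3p pair). Without 1 array, higher calls ranged from 2 to 5 (miR-127-5p mimic), 1 to 3 (miR-135a mimic), 0 to 1 (miR-369-3p mimic), 0 to 1 (miR-410 mimic), 9 to 17 (miR-544a mimic), 0 to 1 (miR-655-3p mimic), 2 to 8 (inhibitors), 5 to 7 (miR-135a pair), 0 to 11 (miR-369-3p pair), 0 to 3 (miR-410 pair), 24 to 30 (miR-544a pair), 1 to 4 (miR-655-3p pair). The number of members that differed among the 12 groups was 87, and 80 without background correction.

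Deviations of same-numbered arrays of different groups correlated at -0.48 to 0.52 (66 pairs of groups, median 0.04, with 27 above 0.1). This spread does not settle whether the numbers pair the samples. With the replicate number as a block 159 of the 162 named calls were kept. Dim members limit the precision: 73 of the 153 were below detection on at least 1 array, and 2 arrays a group leave few degrees of freedom.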

Other observations

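Other short structured RNAs were measured beside the snoRNAs. TERC, the telomerase RNA, which carries an H/ACA domain and a Cajal body signal, averaged 409.7 ± 38.3 units with the miR-127-5p mimic, 158 ± 102.5 with miR-544a, 82.1 ± 4.37 with miR-135a, 74.1 ± 1.39 with miR-369-3p, 94.7 ± 17.3 with miR-410, 155 ± 14.7 with miR-655-3p and 244 ± 8.10 in NT (SD, n = 2 each). It was lower than NT with miR-135a (-1.57, adjusted p = 0.00129, limma), miR-369-3p (-1.72, adjusted p = 0.00241), miR-410 (-1.38, adjusted p = 0.00785) and in the mean of the inhibitors (-0.97, adjusted p = 0.0107). RMRP, the RNA of RNase MRP, was lower in the same comparisons (-1.22, -1.50, -1.05 and -0.91). RPPH1, the RNA of RNase P, had a wide range: 466 ± 21.4 units in the miR-135a mimic and 4156 ± 380.1 in the miR-135a inhibitor, a difference of -3.15 (adjusted p = 1.1e-09). It was lower in the mimic in all 5 pairs, by 0.59 to 3.15, and 2.02 higher in the inhibitors than in NT (adjusted p = 1.71e-08).

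Over the 15 tested RNAs of this kind, 7 were lower and 0 higher in the miR-135a mimic than in its inhibitor (background 7.44% and 7.71%), with a median of -0.63 against -0.00 over all tested probes, and 8 lower and 0 higher for miR-410 (background 3.89% and 3.74%), with a median of -0.76 against 0.01. The miR-369-3p pair had 3 and 0 (background 4.23% and 4.29%), the miR-544a pair 4 and 1 (background 9.5% and 10.7%) and the miR-655-3p pair 1 and 0 (background 4.86% and 4.13%). The Y RNAs RNY1, RNY4 and RNY5 were among those lower for miR-410 (-1.48, -1.75 and -1.42). Of 68 tested probes whose symbols begin with MIR, microRNA genes and a few of their host transcripts, at most 8 were called in any of the 12 comparisons, 5 lower and 3 higher in the miR-544a pair, where 9.5% and 10.7% of all tested probes were. Replication-dependent histone genes, whose messages end without a poly(A) tail, had 37 tested probes. Of these, 21 were higher and 0 lower in the inhibitors than in NT (median 0.58; background 3.6% and 3.6%), 15 higher and 1 lower with the miR-544a mimic (background 11.2% and 9.8%), 13 and 0 with miR-135a (background 8.14% and 8.27%), 10 and 0 with miR-127-5p (background 7.75% and 8.02%), 10 and 0 with miR-410 (background 3.46% and 4.1%), 1 and 0 with miR-655-3p (background 5.51% and 5.9%) and 0 and 0 with miR-369-3p (background 2.31% and 2.76%), where 5 were higher and 0 lower at an unadjusted p under 0.05 in limma. Against its own inhibitor the miR-544a mimic had 11 lower and 1 higher (background 9.5% and 10.7%), led by H2BC12 (-2.50) and H2AC18 (-1.73). The other pairs also had lower calls and 0 higher: 6 for miR-135a (background 7.44%) and 7 for miR-369-3p (4.23%). The miR-410 pair had 5 lower (3.89%) and the miR-655-3p pair 3 (4.86%). Medians were -0.33 for miR-544a and -0.26, -0.30, -0.23 and -0.28 for miR-135a, miR-369-3p, miR-410 and miR-655-3p.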
